A study of Mus musculus with 6 samples.

Results

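The nuclear pore complex, the nuclear lamina and the nuclear transport receptors were followed through 59 genes, out of 21851 with a symbol, in mouse hematopoietic stem cells (HSCs). The members were taken by name: 44 symbols begin with a Nup, Ipo or Tnpo number, a Kpna number, Kpnb1, or Xpo with a number or t, and 15 were listed singly (Lmna, Lmnb1, Lmnb2, Lbr, Emd, Sun1, Sun2, Tmpo, Banf1, Pom121, Ndc1, Tpr, Ran, Rae1 and Seh1l). Bone marrow HSCs of wild-type (WT) mice were read by RNA-seq in 6 libraries. Control mice (Ctrl) gave 3 of these, and mice exposed to ionizing radiation (IR) gave the other 3. The sort kept lineage-negative cells with Sca-1, c-Kit and CD150 on their surface and without Flt3 or CD48. The sources used here give no radiation dose, time after exposure, strain, age or sex, and do not state how many mice went into a library. The series title speaks of HSCs with premature aging, and the comparison of IR with Ctrl asks how RNA levels in these cells differ after irradiation.

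The nuclear pore complex is the channel through which proteins and RNA cross the nuclear envelope. Its scaffold is built of a Y complex in the outer rings and of an inner ring, held in the membrane by transmembrane nucleoporins. Phenylalanine-glycine repeats of other nucleoporins fill the channel, filaments reach into the cytoplasm, and a basket reaches into the nucleus. Importins and exportins carry cargo through it, with direction set by the GTPase Ran, which is loaded with GTP in the nucleus. The lamina, a meshwork of A-type and B-type lamins, lines the inner membrane and binds chromatin through proteins such as emerin and the lamin B receptor. In blood, loss of lamin B receptor function is known for abnormally lobed neutrophil nuclei, and fusions of NUP98 or NUP214 are known from leukaemia.

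Levels are given in FPKM (fragments per kilobase of transcript, scaled to the library's mapped fragments); the columns carry no unit, and this one was inferred from the values and the submitters' tools. Groups are given as mean ± SD of 3 libraries (n = 3), Ctrl before IR, and single libraries as replicates 1, 2 and 3. Steps between low values correspond to about 14400000 to 16300000 fragments per library. Of the HSC markers reported, 2 had high RNA levels. Kit was at 97.5 ± 1.72 FPKM in Ctrl and 96.7 ± 1.65 FPKM in IR. Ly6a, which encodes Sca-1, was at 202.8 ± 5.13 and 156.7 ± 5.17 FPKM. The others were lower, with Ctrl means of 19.2 FPKM for Procr, 6.93 for Hlf, 3.57 for Slamf1, 3.37 for Mecom, 0.613 for Hoxb5 and 0.594 for Fgd5. Markers of other lists were far higher in Ctrl, with Dntt at 430 and Mpo at 2253 FPKM. Marker RNA thus does not by itself establish the identity of the cells. Among the markers reported, Slamf1 rose, Procr, Hlf and Ly6a fell, and Mecom and Kit were not called. Hoxb5 was called as a rise, but it reached the minimum of 1 FPKM for testing only in IR, where its mean was 1.39 FPKM. That call is therefore no support for a rise. Fgd5 was under the minimum in both groups and not tested, with means of 0.594 FPKM in Ctrl and 0.279 FPKM in IR. RNA of Flt3 and Cd48 was present too, at 125 ± 1.58 and 400.1 ± 3.36 FPKM in Ctrl and 65.7 ± 1.43 and 351.6 ± 8.003 FPKM in IR, although the sort selected against both proteins. Whether libraries within a group stem from different animals is not stated, so the p-values speak only of the spread among these libraries, which may be technical. In bulk RNA, fewer cells of a type and less RNA per cell cannot be told apart.

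Most of the tested members were higher in IR, by small amounts. Of 59 members, 56 reached 1 FPKM in 3 or more libraries and were tested. Of these 56, 33 rose (58.9%), 1 fell and 22 stayed without a call, by limma with Benjamini-Hochberg adjustment over 10281 genes and a threshold of 0.05. Over all genes tested, 25.8% rose and 28.9% fell, 54.7% in all. The members' median log2 fold change on log2(FPKM + 1) was 0.14, beside -0.01 over all genes tested, and the mean of IR was above that of Ctrl in 49 of 56 members, beside 48.6% of all genes tested. In 34 of the 56 members every IR library lay above every Ctrl library, which held for 29.1% of all genes tested. In 1 member every IR library lay below, which held for 32.5% of all genes tested. Changes were modest: 12 tested members had an IR mean at least 25% above that of Ctrl, with a highest ratio of 1.43, and 0 had one at least 20% below. Over all genes tested, 8.34% rose by at least 25% and 12.1% fell by at least 20%. Summed over the 59 members, RNA came to 2328 to 2364 FPKM in Ctrl libraries and to 2565 to 2584 FPKM in IR libraries.

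**Figure D1:**
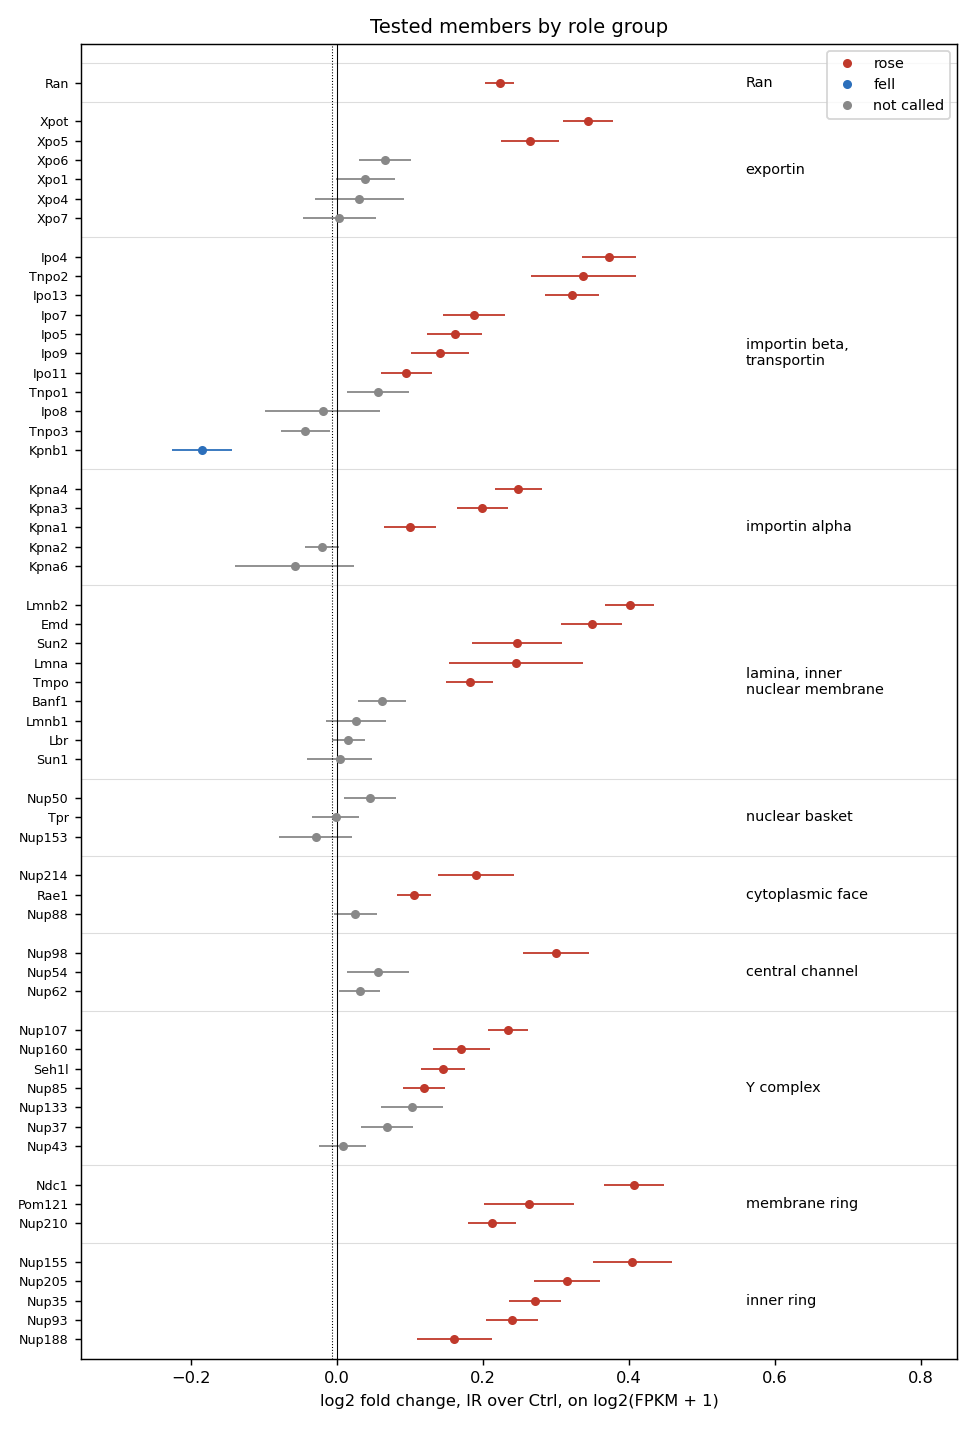
Log2 fold change of IR over Ctrl on log2(FPKM + 1) for the 56 tested members, with bars of 1 standard error, grouped by role; red members rose, the blue one (Kpnb1) fell and grey ones were not called, and the dotted line is the median of all genes tested. All 5 inner ring members and all 3 tested membrane ring members lie to the right, while the 3 basket members lie near 0.

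**Figure D2:**
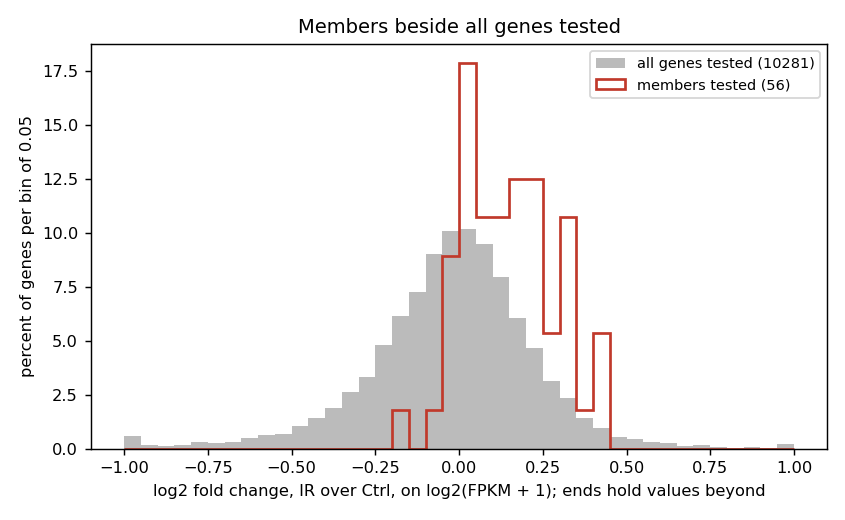
Distribution of log2 fold changes (IR over Ctrl) of the 56 tested members (red outline) and of the 10281 genes tested (grey), as percent of genes per bin of 0.05. The members' median of 0.14 stands beside -0.01 for all genes tested.

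The inner ring carried more RNA throughout. All 5 of its genes rose, with ratios of means of 1.146 to 1.38, and in each of them all IR libraries lay above all Ctrl libraries. Of all genes tested, 25.8% rose, and in 29.1% every IR library lay above every Ctrl library. Nup155, which ties the inner ring to the membrane, was at 6.05, 5.89 and 5.31 FPKM in the Ctrl libraries and at 7.73, 8.20 and 7.86 FPKM in the IR libraries. Its log2 fold change was 0.40 (SE 0.054, limma adjusted p = 0.000154), higher than that of 96.9% of all genes tested. Nup155 codes for protein and spans 8109273 to 8161247 of chromosome 15 (GRCm38, GENCODE M21). Nup205, a large scaffold nucleoporin, was at 7.83, 8.05 and 7.54 FPKM in Ctrl and 9.59, 10.1 and 10.2 FPKM in IR (log2 fold change 0.32, adjusted p = 0.000244). The gap between the groups exceeded the whole range within either of them. Nup35, a membrane-binding subunit, was at 18.5, 18.1 and 18.2 FPKM in Ctrl and 23.0, 21.8 and 22.0 FPKM in IR (0.27, adjusted p = 0.000133). Nup93, the linker of the inner ring, rose from 40.5 ± 0.849 to 48.1 ± 2.09 FPKM and Nup188, a relative of Nup205, from 4.23 ± 0.134 to 4.85 ± 0.186 FPKM; these 2 are named after their values were seen. Nup188 was not called when Ctrl replicate 1, Ctrl replicate 2, IR replicate 2 or IR replicate 3 was left out (highest adjusted p = 0.0751).

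In the membrane ring all 3 tested genes rose, without overlap between the groups. The shares over all genes tested were 25.8% that rose and 29.1% without overlap and with IR above. Ndc1, a transmembrane nucleoporin needed to set pores into the envelope (chromosome 4, 107367784 to 107416346), was at 21.3, 23.2 and 23.2 FPKM in Ctrl and 30.6, 29.3 and 30.8 FPKM in IR. Its log2 fold change of 0.41 (SE 0.041, adjusted p = 2.54e-05) had the highest value among tested members. Pom121, another membrane anchor, rose from 6.55 ± 0.569 to 8.05 ± 0.373 FPKM (0.26, adjusted p = 0.0046). Of its exonic bases, 11.9% are shared with the gene Nsun5 on the opposite strand, and whether the counting used strand is not stated. Nup210, whose product gp210 forms a luminal ring, was tight in Ctrl at 23.0 FPKM in each library and at 26.98, 26.1 and 27.4 FPKM in IR (0.21, adjusted p = 0.000377). The related Nup210l was not tested, at 0.0617 to 0.118 FPKM in Ctrl and 0.110 to 0.154 FPKM in IR.

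In the Y complex, which coats the outer rings, 4 of 7 genes rose and 3 were not called. The share that rose was 57.1%, beside 25.8% of all genes tested. Nup107, a core subunit, was at 49.8, 48.8 and 48.3 FPKM in Ctrl and 58.7, 56.6 and 58.0 FPKM in IR (log2 fold change 0.23, SE 0.028, adjusted p = 7.2e-05). Every IR library thus stood well above the Ctrl range. Nup160 rose from 10.2 ± 0.0665 to 11.6 ± 0.214 FPKM and Seh1l, a subunit shared with the amino acid sensing GATOR complex, from 46.9 ± 0.507 to 51.99 ± 1.58 FPKM. Nup85, named after its value was seen, rose from 82.98 ± 2.62 to 90.2 ± 0.974 FPKM. Nup133, Nup37 and Nup43 were not called, with ratios of 1.08, 1.05 and 1.005, and their libraries overlapped between groups. Of the exonic bases of Nup133, 10.4% are shared with predicted genes on the opposite strand. Nup133 was called without IR replicate 2 (adjusted p = 0.0252) and Nup37 without IR replicate 3 (adjusted p = 0.0368).

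The channel and its cytoplasmic face changed in part. Nup98, whose transcript encodes both the repeat-bearing Nup98 and the scaffold protein Nup96, was at 7.27, 7.22 and 7.64 FPKM in Ctrl and 9.60, 9.31 and 9.05 FPKM in IR (log2 fold change 0.30, SE 0.045, adjusted p = 0.000324). Its groups did not overlap. The other channel members were not called: Nup62 was at 80.8 ± 2.33 and 82.6 ± 1.18 FPKM, and Nup54 at 27.3 ± 1.28 and 28.4 ± 1.07 FPKM. The channel gene Nup58 is listed under its older symbol Nupl1, which the member rule does not take. Nupl1, named after its values were seen, rose from 22.6 ± 0.843 to 26.5 ± 0.984 FPKM (0.22, limma adjusted p = 0.00102). It is counted below with the other nuclear pore genes. On the cytoplasmic face Nup214 rose from 6.41 ± 0.0347 to 7.46 ± 0.495 FPKM (0.19, adjusted p = 0.0108) and Rae1, an RNA export factor that docks on Nup98, from 106 ± 0.382 to 114 ± 1.81 FPKM (0.11, adjusted p = 0.0031). Nup88, the partner of Nup214, was not called at 66.3 ± 1.53 and 67.4 ± 1.65 FPKM. Nup62cl, a relative of Nup62 outside the role groups, was not tested, at 0.0587 to 0.172 FPKM in Ctrl and listed at 0 in all IR libraries.

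In the nuclear basket 0 of 3 genes were called by limma, beside 54.7% of all genes tested. Of the 3, 0 had an unadjusted p under 0.05, and values of the groups overlapped in each of them. Tpr, the filament protein of the basket, was at 22.3, 22.5 and 22.8 FPKM in Ctrl and 22.8, 22.5 and 22.3 FPKM in IR. Nup153 was at 6.46 ± 0.0885 and 6.31 ± 0.332 FPKM, and Nup50 at 20.4 ± 0.643 and 21.1 ± 0.237 FPKM. Within a library, the summed FPKM of the 5 inner ring genes over that of the 3 basket genes was 1.57, 1.53 and 1.55 in Ctrl and 1.83, 1.86 and 1.91 in IR. This ratio and those given further on were picked with the values known, so that their separation follows from the choice; they are descriptions with no test.

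**Figure D3:**
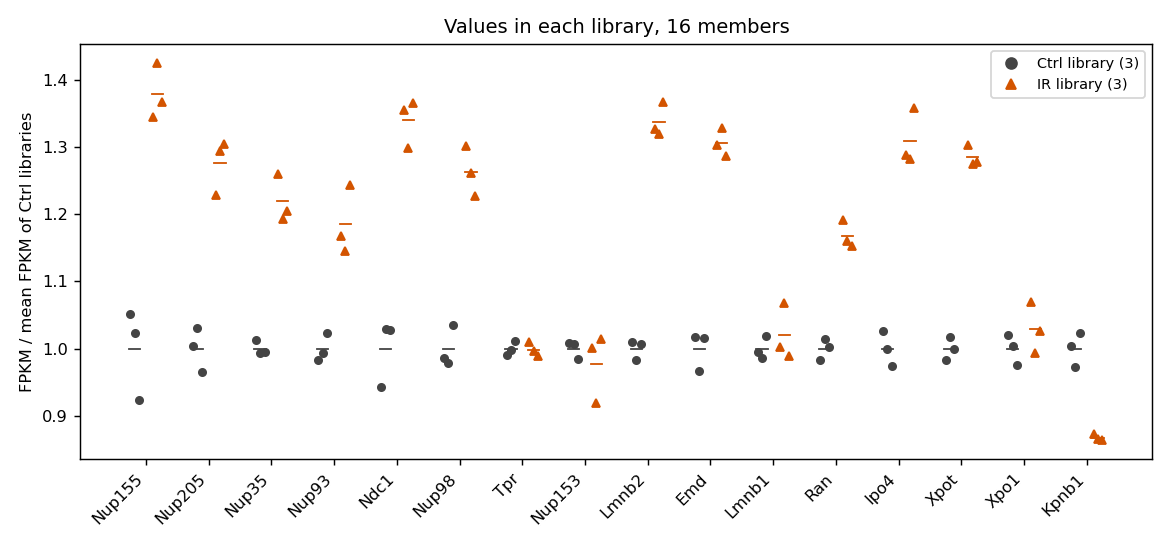
FPKM of 16 members in each library, divided by the mean of the 3 Ctrl libraries (circles, Ctrl; triangles, IR; lines, group means; the vertical axis does not start at 0). The IR libraries of Nup155, Ndc1, Lmnb2, Emd, Ipo4 and Xpot stand apart from Ctrl, those of Tpr, Nup153, Lmnb1 and Xpo1 overlap with Ctrl, and those of Kpnb1 lie below.

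Of 9 tested genes of the lamina and inner membrane, 5 rose (55.6%), 0 fell and 4 had no call. Among all genes tested, 25.8% rose and 28.9% fell. Lmnb2, which encodes lamin B2 (chromosome 10, 80901203 to 80918245), was at 19.1, 18.6 and 19.0 FPKM in Ctrl and 25.1, 24.9 and 25.9 FPKM in IR. With a log2 fold change of 0.40 (SE 0.034) it had the smallest adjusted p among tested members (7.27e-06 by limma). Lmnb1, encoding lamin B1, whose loss is a known mark of senescent cells, was at 14.9, 14.8 and 15.2 FPKM in Ctrl and 14.98, 15.97 and 14.8 FPKM in IR, and was not called (0.03, adjusted p = 0.614). Its groups overlapped. The ratio of Lmnb2 to Lmnb1 FPKM within a library stood at 1.28, 1.26 and 1.248 in Ctrl and at 1.67, 1.56 and 1.75 in IR.

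Emd, which encodes emerin, was at 8.52, 8.10 and 8.501 FPKM in Ctrl and 10.9, 11.1 and 10.8 FPKM in IR (log2 fold change 0.35, SE 0.042, adjusted p = 7.7e-05); 13.6% of its exonic bases are shared with the predicted gene Gm14686 on the same strand. Tmpo, encoding the LAP2 proteins that bind lamins and chromatin, rose from 58.6 ± 2.31 to 66.6 ± 0.5098 FPKM (0.18). The SUN-domain proteins link the lamina to the cytoskeleton, and their genes stood differently: Sun2 rose from 2.49 ± 0.141 to 3.15 ± 0.198 FPKM (0.25, adjusted p = 0.00664), while Sun1 was not called at 13.7 ± 0.774 and 13.7 ± 0.147 FPKM. Lbr, the lamin B receptor, and Banf1, which bridges DNA and emerin-like proteins, were abundant and not called, at 114 ± 1.52 and 115 ± 0.695 FPKM for Lbr and 281 ± 11.6 and 293 ± 10.1 FPKM for Banf1. Banf1 shares 28.6% of its exonic bases with Eif1ad on the opposite strand and was called without Ctrl replicate 3 (adjusted p = 0.034). Lmna, the A-type lamin gene, was the lowest tested member, at 0.96, 1.10 and 1.32 FPKM in Ctrl and 1.67, 1.67 and 1.23 FPKM in IR. Its groups overlapped, and its rise (0.25, SE 0.092, adjusted p = 0.0444) was not called without Ctrl replicate 1, Ctrl replicate 2, IR replicate 1 or IR replicate 2 (highest adjusted p = 0.149). At the estimated depth these Lmna levels rest on about 56 to 104 fragments per library, taking its longest transcript.

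**Figure D4:**
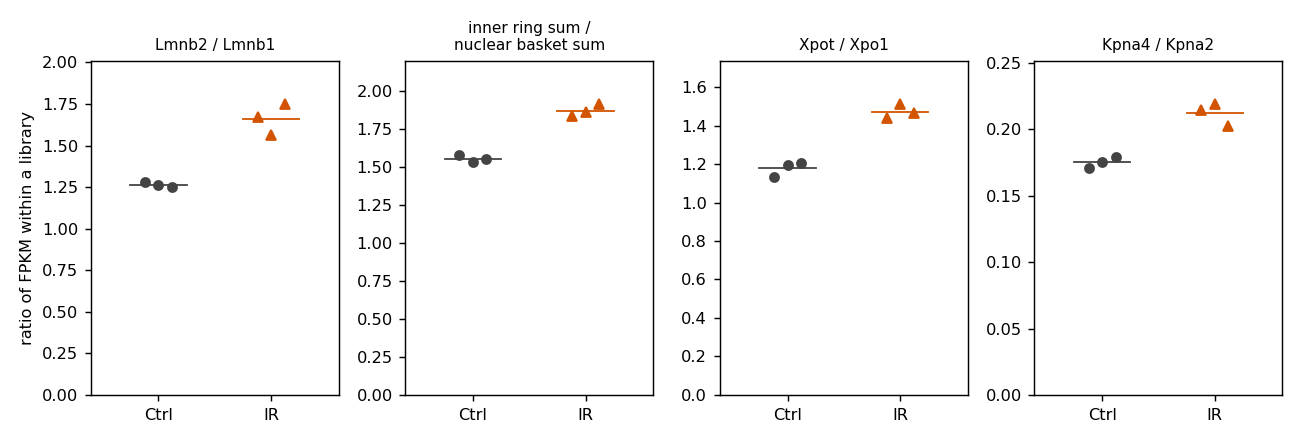
Ratios of FPKM within each library (circles, Ctrl; triangles, IR; lines, group means; axes start at 0) for Lmnb2 over Lmnb1, inner ring over nuclear basket, Xpot over Xpo1 and Kpna4 over Kpna2. The pairs were picked with their values known; in all 4 panels the IR libraries lie above the Ctrl libraries, for example 1.56 to 1.75 against 1.248 to 1.28 for Lmnb2 over Lmnb1.

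Importin alpha adaptors recognise classical import signals and pass cargo to importin beta. Of 5 tested adaptors 3 rose (60%, beside 25.8% of all genes tested) and 2 had no call. Kpna4 was at 36.9, 37.7 and 38.6 FPKM in Ctrl and 46.2, 45.1 and 43.8 FPKM in IR (log2 fold change 0.25, SE 0.032, adjusted p = 0.00012), and its close relative Kpna3 rose from 31.4 ± 0.326 to 36.2 ± 1.46 FPKM (0.20). Both were without overlap between the groups. Kpna1 rose from 19.2 ± 0.324 to 20.6 ± 0.602 FPKM (0.10, adjusted p = 0.0377), a call held in 1 of 6 fits with a library left out, the one without IR replicate 3 (highest adjusted p = 0.124). Kpna2, the most abundant adaptor and one that cycles with proliferation in many cells, was not called at 215 ± 0.269 and 212 ± 5.32 FPKM. Kpna6 was not called at 1.86 ± 0.257 and 1.74 ± 0.192 FPKM, and Kpna7, known from oocytes and early embryos, was listed at 0 in all 6 libraries. The ratio of Kpna4 to Kpna2 within a library was 0.171, 0.175 and 0.1795 in Ctrl and 0.215, 0.219 and 0.203 in IR.

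Among the importin beta family 7 of 11 genes rose (63.6%), 1 fell (9.09%) and 3 had no call. The shares over all genes tested were 25.8% and 28.9%. Ipo4, an importin for histones and ribosomal proteins, was at 20.8, 20.3 and 19.8 FPKM in Ctrl and 26.1, 25.99 and 27.6 FPKM in IR (log2 fold change 0.37, SE 0.037, adjusted p = 2.24e-05). The groups were far apart, but 55.3% of the exonic bases of Ipo4 are shared with the predicted gene Gm49378 on the same strand, so its level is uncertain. Ipo13, which carries cargo in both directions, was at 12.7, 12.8 and 13.2 FPKM in Ctrl and 16.5, 16.3 and 16.2 FPKM in IR (0.32, adjusted p = 5.54e-05). Tnpo2, a transportin for RNA-binding proteins, had the highest ratio of means among tested members, 1.43, from a low level of 1.67, 1.59 and 1.48 FPKM in Ctrl to 2.06, 2.19 and 2.57 FPKM in IR (0.34, adjusted p = 0.00288). Its level rests on about 121 to 210 fragments per library, and 10.6% of its exonic bases are shared with a gene on the opposite strand. The members Ipo7, Ipo5, Ipo9 and Ipo11, named after their values were seen, rose with ratios of 1.151, 1.12, 1.11 and 1.07. Ipo9 was not called without Ctrl replicate 3 (adjusted p = 0.0526), and Ipo11 was called in 1 of 6 fits with a library left out, the one without Ctrl replicate 2 (highest adjusted p = 0.144), and missed the threshold with a replicate block (adjusted p = 0.0633).

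Kpnb1, which encodes importin beta itself, was the single member that fell; the naming rule does not cover it, and it was picked with its value known. It was at 10.1, 9.77 and 10.3 FPKM in Ctrl and 8.76, 8.68 and 8.67 FPKM in IR, a log2 fold change of -0.19 (SE 0.041, limma adjusted p = 0.00351). All IR libraries lay below all Ctrl libraries, and Kpnb1 (chromosome 11, 97159714 to 97187881) was called in all 6 fits with a library left out. Tnpo1, Tnpo3 and Ipo8 were not called, with ratios of 1.04, 0.97 and 0.988. Within a library the ratio of Ran to Kpnb1 FPKM was 48.8, 51.8 and 48.8 in Ctrl and 67.9, 66.7 and 66.3 in IR.

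Of the 6 exportins with an Xpo name 2 rose (33.3%, beside 25.8% of all genes tested), 0 fell and 4 had no call. Xpot, the tRNA exportin, was at 16.4, 17.0 and 16.7 FPKM in Ctrl and 21.8, 21.3 and 21.3 FPKM in IR (log2 fold change 0.34, SE 0.034, adjusted p = 2.18e-05). Xpo5, the exportin of microRNA precursors, was at 14.4, 14.3 and 15.4 FPKM in Ctrl and 17.7, 18.2 and 17.7 FPKM in IR (0.26, adjusted p = 0.000334). Neither overlapped between groups. Xpo1, also called CRM1, the general exportin of proteins with a leucine-rich signal, was not called at 14.2 ± 0.321 and 14.6 ± 0.528 FPKM, and Xpo6, the exportin of actin, was not called at 20.7 ± 0.586 and 21.7 ± 0.3597 FPKM although its IR libraries all lay above Ctrl. Xpo4 and Xpo7 were not called either, with ratios of 1.02 and 1.003. The ratio of Xpot to Xpo1 within a library was 1.14, 1.19 and 1.21 in Ctrl and 1.44, 1.51 and 1.47 in IR.

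Ran itself was the most abundant member, above 98.9% of genes tested by its mean over all libraries. It was at 491, 506 and 501 FPKM in Ctrl and 595, 579 and 575.5 FPKM in IR (log2 fold change 0.22, SE 0.020, adjusted p = 1.1e-05). In a list of 13 tested genes of the Ran cycle and other transport receptors outside the members, 3 rose (23.1%, beside 25.8% of all genes tested), 2 fell and 8 had no call (median log2 fold change 0.05). The list as a whole thus did not hold more rises than the background. Rangap1, the GTPase activator of Ran, was at 54.9, 57.9 and 55.8 FPKM in Ctrl and 67.9, 71.0 and 71.5 FPKM in IR (0.31). Cse1l, which returns importin alpha to the cytoplasm, was at 77.3, 79.2 and 78.5 FPKM in Ctrl and 98.3, 92.2 and 95.1 FPKM in IR (0.28). Rcc1, the exchange factor that loads Ran with GTP, was at 71.2, 70.8 and 70.1 FPKM in Ctrl and 80.1, 83.1 and 83.5 FPKM in IR (0.21). In all 3 genes the IR libraries stood above the Ctrl libraries. The 2 that fell, Ranbp17 and the ribosome export adaptor Nmd3, are named after their values were seen. Nmd3 had a log2 fold change of -0.08 (limma adjusted p = 0.0306). Ranbp17 was low, at 1.31, 1.39 and 1.18 FPKM in Ctrl and 0.822, 0.680 and 0.747 FPKM in IR (-0.39). It reached the minimum of 1 FPKM only in Ctrl, the group where it was high, so its call is no support for a fall.

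Of 13 other nuclear pore genes 5 rose (38.5%), 0 fell and 8 had no call (median 0.12). Over all genes tested, 25.8% rose and 28.9% fell. Those that rose include Tmem33 at 0.23, the mRNA export factor Gle1 at 0.17 and Sec13, a Y complex subunit shared with vesicle coats, at 0.17. Of 21 messenger RNA export genes 9 rose (42.9%), 4 fell (19.05%), and 8 had no call (median 0.06). Both subunits of the nuclear cap-binding complex rose, Ncbp2 from 38.2 ± 0.944 to 53.9 ± 1.33 FPKM (0.49) and Ncbp1 from 46.97 ± 1.67 to 63.0 ± 1.23 FPKM (0.42), as did the export adaptor Alyref from 132 ± 2.64 to 165 ± 2.06 FPKM (0.32). The 4 that fell, named after their values were seen, were Nxt2 (log2 fold change -0.34), Thoc3 (-0.26), Thoc2 (-0.14) and Zc3h14 (-0.11). Of 20 tested other lamina and envelope genes, 4 rose (20%), 8 fell (40%) and 8 had no call (median -0.07). Among those that fell, Lemd3, named after its values were seen, reached 1 FPKM only in Ctrl. Its means were 1.40 FPKM in Ctrl and 0.836 FPKM in IR, so its call is no support for a fall. Nrm, the inner membrane protein nurim, fell from 117 ± 3.90 to 103 ± 2.55 FPKM and Fnta, a subunit of the enzyme that farnesylates lamins, from 102 ± 1.11 to 92.9 ± 1.78 FPKM, while Tor1aip2, a torsin cofactor, rose from 11.7 ± 0.228 to 13.9 ± 0.233 FPKM.

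Counts for other gene sets stand beside the shares over all genes tested, of which 25.8% rose and 28.9% fell. Of 20 proliferation genes 10 rose (50%), 4 fell (20%) and 6 had no call. Their summed level was 2504 to 2512 FPKM in Ctrl and 2577 to 2618 FPKM in IR. The replication helicase genes Mcm2, Mcm5 and Mcm3 had log2 fold changes of 0.25, 0.22 and 0.21, while the helicase gene Mcm7 (-0.01) and Mki67 (-0.04) were not called. The 4 that fell act in mitosis: Cenpa at -0.33, Cdc20 at -0.18, Ccnb2 at -0.17 and Ccnb1 at -0.09. Mitotic genes did not fall as a set, since Bub1 rose (0.22). Plk1 (-0.03), Aurkb (0.02) and Cdk1 (-0.05) were not called. All of these mitotic genes, with Mcm7 and Mki67, are named after their values were seen. All 6 tested markers of multipotent or lymphoid-primed progenitors fell (985.5 to 992.4 FPKM in Ctrl, 599.5 to 611 FPKM in IR, summed over 7). Among them Il7r, with means of 1.63 FPKM in Ctrl and 0.708 FPKM in IR, reached 1 FPKM only in Ctrl. Its call is therefore no support for a fall. Of 5 tested megakaryocyte markers 4 rose (91.9 to 94.8 and 142 to 155 FPKM, over 6), of 5 erythroid markers 3 rose and the globin genes Hba-a1 and Hbb-bs fell (56.6 to 62.3 and 78.5 to 84.4 FPKM, over 7), of 8 granulocyte-monocyte markers 4 rose and Csf1r, Lyz2 and S100a8 fell (5935 to 5967 and 6663 to 6804 FPKM), and of 4 mast cell and basophil markers 3 rose and Prss34 fell (261.5 to 266 and 319.8 to 327 FPKM). Of 4 B cell markers in the files 1 was tested and rose (7.15 to 8.46 and 8.74 to 9.14 FPKM, over 4, Pax5 listed at 0 in all IR libraries), and of 4 T and NK cell markers 2 were tested (527 to 550.2 and 646.5 to 655 FPKM, over 4). Nearly all of this last sum was Nkg7, which rose from 534.5 ± 11.8 to 648.4 ± 4.25 FPKM. Klrb1c fell from 3.58 ± 0.369 to 2.03 ± 0.167 FPKM, and Cd3e and Cd3d were at 0.183 FPKM or lower in every library. Single markers are named here after their values were seen. The part of these sets in the members' differences was not tested.

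Across the 56 tested members the size of change did not track level or length closely. Spearman's rho of the log2 fold change was -0.14 with Ctrl level and -0.01 with the length of the longest transcript, as descriptions over genes that share the same 6 libraries. The members lie on 18 chromosomes. Median levels in Ctrl were 18.3 FPKM for members that rose and 20.5 FPKM for those not called, and median longest transcripts were 4518 and 4508 bases.

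Promoters were read because most members moved the same way. RefSeq's promoter table for GRCm38.p6, with 250 bases before and 50 after each start, held 48 of the 59 members, 46 of them tested; it has no entry for Seh1l, Nup85, Nup43, Xpo4, Xpo7, Kpna6, Kpna3, Kpna1, Nup35, Lmnb1 and Nup210l. For each gene the start nearest the GENCODE M21 5′ end was used, which lay within 100 bases in 39 of 46 members. Members' promoters were rich in CpG, with a median of 28 CpG per 300 bases, beside 21 over 8020 tested genes with an entry and 7 over all 27025 genes in the table. The E-box CACGTG, a sequence bound by MYC with MAX and by USF proteins, lay in 8 of 46 member promoters (17.4%), beside 10.6% of tested genes and 7.2% of all. It lay in 7 of 28 members that rose and in 1 of the 18 others. The core of the NRF1 motif, GCATGCGC, lay in 5 of 46 (10.9%), beside 6.1% of tested genes and 2.8% of all, in 3 of the 28 that rose and 2 of the 18 others. The ETS motif CCGGAAGT was in 5 of 46 (10.9%), beside 9.5% of tested genes, the YY1 motif AAGATGGC in 5 of 46, beside 5.3%, the GC box GGGCGG in 35 of 46 (76.1%), beside 65.6%, and the CCAAT box, searched as CCAAT, in 25 of 46 (54.3%), beside 40.1%. CCAAT lay in 12 of the 28 that rose and in 13 of the 18 others. All motifs were searched on both strands in the 300 bases, and a match is a description of letters, not of binding. The E-box and the NRF1 core themselves contain CpG, and the part of CpG density in their shares was not tested.

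Stretches around the E-box are shown for the members that hold it before the start and outside annotated exons, 5′ to 3′ on the gene's strand, with CACGTG in capitals. They come from Ipo7 (chr7:110018138-110018223, plus strand), Nup188 (chr2:30286335-30286395, plus), Nup93 (chr8:94214349-94214434, plus), Ran (chr5:129019998-129020068, plus), Tnpo2 (chr8:85036737-85036822, plus), Xpot (chr10:121626518-121626582, minus) and, as the member that was not called, Nup54 (chr5:92435254-92435339, minus), all on GRCm38.p6.
Ipo7: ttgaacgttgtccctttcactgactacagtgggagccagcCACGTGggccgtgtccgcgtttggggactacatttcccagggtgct
Nup188: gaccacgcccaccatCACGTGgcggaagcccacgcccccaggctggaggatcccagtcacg
Nup93: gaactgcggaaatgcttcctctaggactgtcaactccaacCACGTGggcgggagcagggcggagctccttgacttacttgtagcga
Ran: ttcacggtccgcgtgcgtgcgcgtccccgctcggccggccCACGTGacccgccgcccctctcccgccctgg
Tnpo2: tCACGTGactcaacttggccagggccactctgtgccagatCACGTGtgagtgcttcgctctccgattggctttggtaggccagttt
Xpot: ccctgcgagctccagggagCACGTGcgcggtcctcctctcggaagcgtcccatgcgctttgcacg
Nup54: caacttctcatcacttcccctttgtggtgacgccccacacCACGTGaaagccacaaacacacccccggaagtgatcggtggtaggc

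Tnpo2 carries 2 matches in its stretch. Nup188 holds 2 in its promoter, of which 1 lies outside annotated exons and is shown. In Ipo4 the match lies after the start and is not shown. Stretches around the NRF1 core are shown likewise, with GCATGCGC on either strand in capitals, where matches on both strands overlap. They come from Nup107 (chr10:117792721-117792808, minus), Xpo5 (chr17:46202711-46202781, plus) and Ran (chr5:129019913-129020000, plus), which rose, and from Nup50 (chr15:84923285-84923372, plus) and Nup62 (chr7:44816030-44816087, plus), which were not called.
Nup107: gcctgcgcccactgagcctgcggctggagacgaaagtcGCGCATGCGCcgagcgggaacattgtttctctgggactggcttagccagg
Xpo5: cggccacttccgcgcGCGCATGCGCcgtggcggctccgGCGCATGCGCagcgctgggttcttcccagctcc
Ran: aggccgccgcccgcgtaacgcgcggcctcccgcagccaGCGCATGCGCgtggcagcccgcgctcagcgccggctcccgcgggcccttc
Nup50: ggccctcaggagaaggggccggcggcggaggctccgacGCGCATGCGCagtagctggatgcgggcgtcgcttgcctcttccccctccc
Nup62: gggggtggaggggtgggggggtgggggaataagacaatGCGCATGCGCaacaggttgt
The Ran promoter holds both motifs, and the NRF1 core lies in 2 places in the promoters of both Xpo5, which rose, and Nup50, which was not called; the stretch of Nup50 shows 1 of them.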

How the data were processed

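RNA was measured in 6 libraries made with a strand-specific kit for polyadenylated RNA, per the labels' protocols. The deposited values are FPKM per gene symbol, made by the authors with fastp, HISAT2 and StringTie on GRCm38 (mm10), per the submitters' processing notes; versions, annotation and settings are not stated there, and the unit was inferred from the values. Each table held 21878 entries, of which 27 carried a date for a symbol and were left out. In genes with 1 transcript, 25.4% to 27.6% of low values per library came within 0.01 of a whole number of fragments at the best step. This gave an estimate of depth but too few whole values to recover reads. Genes reaching 1 FPKM in 3 libraries were fitted together on log2(FPKM + 1) with limma 3.58.1 in R 4.3.3 (empirical Bayes with trend, 2-sided, no replicate block), with Benjamini-Hochberg adjustment over all of them and a threshold of 0.05. Fold changes on this scale understate those of low genes. The fit was also run on simulated data with few changed genes, unlike these data, so that run does not show its error rate here. Same-numbered libraries did not deviate together (correlations of -0.0486 to 0.0085), so replicate numbers were not taken as pairs. Members, role groups and lists were chosen with earlier results of these data known, so neither sets nor ratios between members were tested. Named by rule were, in each role group, the 3 members with the smallest p and all whose mean was at least 25% higher or 20% lower in IR, and in each other list the 3 smallest p. Exon overlap of 10% or more was taken from GENCODE M21, and all 59 members matched it. The alternatives were other filters, pseudocounts, a median-ratio rescaling, robust variance, a replicate block and leaving out each library. An item of the HSC marker list is not reported here.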

Additional observations from a re-analysis of the deposited data

How the results depend on the processing

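No called member changed direction under any of the 13 alternatives, and 29 of the 34 called members were called in all those in which they were tested; the other 5 (Lmna, Kpna1, Ipo11, Ipo9 and Nup188) each lost the call when at least 1 library was left out. Without a filter on low values 32 members rose and 2 fell, Nup62cl being the added fall, and the median log2 fold change was 0.13. Nup62cl was at 0.0587 to 0.172 FPKM in Ctrl and 0 in all IR libraries, so its call is no support for a fall. Of all genes in that fit 43.2% were called, beside 54.7% in the main fit. With a minimum of 5 FPKM, 29 members rose and 1 fell, while 58.2% of all genes tested were called. With a pseudocount of 5 the median was 0.11. With a library left out, 29 to 32 members rose, 1 fell in each case, and the median was 0.13 to 0.15. In these fits 48.2% to 50.3% of all genes tested were called. The libraries share replicate numbers in their titles only. With the replicate block 31 rose and 1 fell, and Lmna (adjusted p = 0.076) and Ipo11 (adjusted p = 0.0633) missed the threshold. The block changed no other call among the members, and 52.3% of all genes tested were called with it. Depth limits the low members most: Lmna rested on about 56 to 104 fragments per library and Tnpo2 on about 121 to 210.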
